A study of Zea mays with 6 samples.

Results

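ENSRNA identifiers name the non-coding RNA entries listed beside the Zm00001d gene models of the maize B73 genome (B73 RefGen_v4). The 102 entries described here are the shortest expressed members of this series. They were chosen as every entry with an ENSRNA identifier, a length of at most 95 bp and an FPKM of at least 1 in both mRNA replicates, where FPKM is the number of sequenced fragments per kilobase of an entry and scaled to the library's total fragments. Of the 45578 entries in the expression tables, 1635 were ENSRNA entries, 814 of these were at most 95 bp long and 102 met the rule. The mRNA level therefore chose the entries, and it is given below as a description, as is every comparison that has it on one side.

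All libraries came from the F1 hybrid of the inbred lines B73 and Mo17, from aerial tissue of 14-day-old seedlings grown under normal conditions without any treatment. Polyadenylated RNA gave the 2 mRNA libraries, RNA from the polysome fractions of a sucrose gradient gave the 2 polysome libraries, and immunoprecipitation of the polyadenylated RNA with an antibody against N6-methyladenosine (m6A) gave the remaining 2 libraries, which are present as peak lists. The comparison of polysome with mRNA FPKM sets the relative level of an entry in the polysome fractions against its relative level in mRNA. It does not measure the part of an RNA that is found with translating ribosomes. Poly(A) selection, and fragmentation of the RNA before library construction, are stated for the mRNA libraries and not for the polysome libraries. A difference between the fractions and a difference in RNA selection or preparation therefore cannot be told apart. The replicates of each kind are biological replicates, and p-values rest on 2 against 2 libraries.

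RNAs of this size belong to a few well-studied classes. Transfer RNAs carry amino acids to the ribosome and are mostly shorter than the other classes, with those for serine and leucine longer because of an extra arm. Box C/D small nucleolar RNAs guide the methylation of ribosomal RNA in the nucleolus, and in plants their genes often stand in tandem groups or inside introns of host genes. Precursors of microRNAs fold into hairpins from which the mature microRNA is cut. The tables give no class for any ENSRNA entry, so the entries are described by identifier, length and position, and none was assigned to a class.

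The members were 74 to 95 bp long, and their lengths were spread differently from those of all short ENSRNA entries. Of the 814 short entries, 507 were 70 to 75 bp, the size of most transfer RNAs, but only 12 of these (2.37%) were members. The share of members was 26.7% (8 of 30) at 76 to 79 bp, 25.6% (55 of 215) at 80 to 89 bp and 45.8% (27 of 59) at 90 to 95 bp. None of the 319 entries under 74 bp was a member, and 31 of them were above 0 in any library, with a highest value of 1.42 FPKM.

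**Figure D1:**
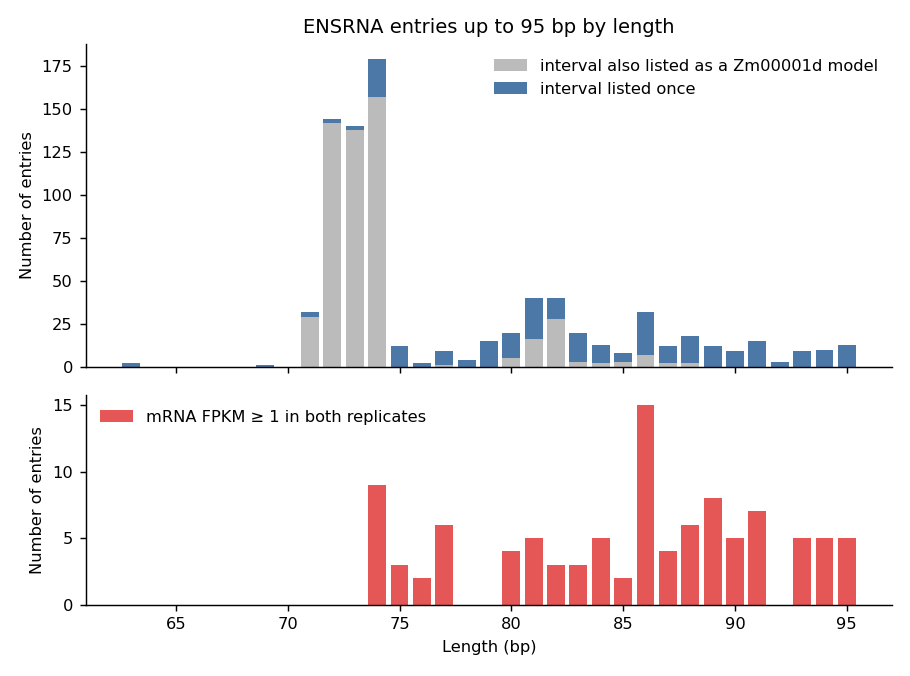
Number of ENSRNA entries (y axes) at each length in bp (x axis). The upper panel holds all 814 entries up to 95 bp, with grey for intervals that a Zm00001d model also occupies exactly and blue for intervals listed once, and the lower panel holds the 102 members. The tall bars at 71 to 74 bp are almost wholly grey, and no member is shorter than 74 bp.

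The scarcity of members at transfer RNA size went together with a double listing of these intervals. For 535 of the 814 short entries, a gene model with a Zm00001d identifier had exactly the same start and end, and 466 of these were 70 to 75 bp long. Among the 316 entries of 71 to 73 bp, 309 had such an identical model. Of the 572 short entries listed at 0 in all 4 libraries, 487 had one. In the 70 to 75 bp class the Zm00001d model had the higher mRNA FPKM for 254 of the 466 intervals, the ENSRNA entry for 0, and both were at 0 for 212. The signal was thus not shared evenly between the 2 names, and 45 of the 466 models reached 1 FPKM in both mRNA replicates. The 12 members of this class therefore do not count the expressed intervals of this size.

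The most abundant interval of this kind was a 71 bp interval on chromosome 5 (215848444 to 215848514). Its ENSRNA049446214 entry was at 0.106 and 0.0574 FPKM in the mRNA replicates, whereas Zm00001d018169 at the same position was at 361 and 430 FPKM. In the polysome replicates Zm00001d018169 was at 3.86 and 1.94 FPKM. Across the 48 identical models that themselves reached 1 FPKM in both mRNA replicates, the median ratio of polysome to mRNA FPKM was 0.0278.

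Only 3 members, all of 74 bp, had an identical model, and they lay close to the threshold or varied in how the signal was split. ENSRNA049438083 on chromosome 1 was at 1.25 and 1.04 FPKM in mRNA, and Zm00001d029951 at the same position was at 107 and 84.4 FPKM. ENSRNA049447361 on chromosome 7 was at 1.257 and 1.001 FPKM beside 110 and 86.7 FPKM for Zm00001d022029. Both entries entered the list with a small part of the signal of their interval.

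The third, ENSRNA049446227 on chromosome 5 (215772153 to 215772226), was at 49.7 and 13.4 FPKM in mRNA and at 13.8 and 16.9 FPKM in polysome RNA. Zm00001d018165 on the same interval was at 49.8 and 49.5 FPKM in mRNA and at 13.8 and 17.0 FPKM in polysome RNA. The 2 identifiers thus had nearly the same value in 3 libraries and differed in mRNA replicate 2. The fit gave no call for the entry (log2 change −0.75, SE 0.57, limma adjusted P = 0.283), whereas the model was lower in polysome RNA (log2 change −1.69, SE 0.15, limma adjusted P = 0.00035).

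Abundance covered more than 4 orders of magnitude and was dominated by a pair of entries. The members' median mean FPKM was 11.0 in mRNA and 0.419 in polysome RNA. Each sequenced read was longer than the entries. Whether the reads came from RNAs of the entry's length or from longer RNAs was not tested. Together they held 5.38 ± 0.231% of the summed FPKM of an mRNA library and 1.33 ± 0.222% of that of a polysome library (SD, n = 2). ENSRNA entries as a whole held 59.2 ± 0.466% and 25.2 ± 0.911% (SD, n = 2), and FPKM, being relative to each library's total, sets all entries against these different totals.

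The pair was ENSRNA049477011 (81473522 to 81473601) and ENSRNA049477007 (81288191 to 81288270), both 80 bp long and on the plus strand of chromosome 6. ENSRNA049477011 was at 29541 and 27704 FPKM in mRNA and at 4160 and 5390 FPKM in polysome RNA. ENSRNA049477007 was at 29115 and 26641 FPKM in mRNA and at 4174 and 5524 FPKM in polysome RNA. All polysome values of both lay below all mRNA values, with ratios of 0.167 and 0.174 (log2 changes −2.59 and −2.54, SE 0.14 and 0.15, limma adjusted P = 0.00013 and 0.00014).

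These 2 entries made up 94.4 ± 0.0795% of the members' summed mRNA FPKM and 75.2 ± 3.58% of their summed polysome FPKM (SD, n = 2). Without them the remaining 100 members held 0.301 ± 0.00863% of an mRNA library and 0.324 ± 0.00746% of a polysome library. The difference between the 2 kinds of library in summed share thus turned round. This turn rested on ENSRNA049477439, at 1293 and 1094 FPKM in mRNA and at 2590 and 2581 FPKM in polysome RNA. Only 3 of the 102 members reached 100 FPKM in a polysome library, the pair and ENSRNA049477439. The values of the pair in each library lay within 0.06 on the log2 scale of each other. Reads that fit both places can be counted at either, so the level of each alone is uncertain.

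The third most abundant member, ENSRNA049477439 (chromosome 6, 25408419 to 25408495, 77 bp), was at 1293 and 1094 FPKM in mRNA and stood on the other side in polysome RNA, at 2590 and 2581 FPKM. Of the remaining 7 of the 10 most abundant, ENSRNA049471198 on chromosome 1 was at 236 and 209 FPKM in mRNA and at 2.01 and 1.19 FPKM in polysome RNA. ENSRNA049478375 on chromosome 6, of 75 bp, was at 138 and 179 FPKM in mRNA and at 51.9 and 45.7 FPKM in polysome RNA. The 10 most abundant were otherwise 86 to 94 bp long and had polysome values below 2.5 FPKM.

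The median ratio of polysome to mRNA FPKM over the 102 members was 0.0396, and the quartiles were 0.0148 and 0.174. Replicate 1 alone gave 0.0444 and replicate 2 gave 0.0264. Ratios per replicate divide libraries with the same replicate number, and these numbers were not shown to pair the samples. The ENSRNA entries above 95 bp with the same mRNA threshold (335 entries) had a median of 0.0951, and the Zm00001d gene models with it (18695 entries) had 0.865. The ratio was below 0.1 for 73 members, and it was above 1 for 11, for 10 of them in both replicates.

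In 90 members every polysome value lay below every mRNA value, and in 9 every polysome value lay above. Among all 19146 entries with mRNA FPKM of at least 1 in both replicates, these shares were 48.9% and 35.3%. Polysome FPKM was at least 1 in both replicates for 27 members, and it was listed at 0 in both for 10 and in one for 24. A value of 0 in these tables need not mean absence, and the depth behind it is unknown because no counts are given.

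**Figure D2:**
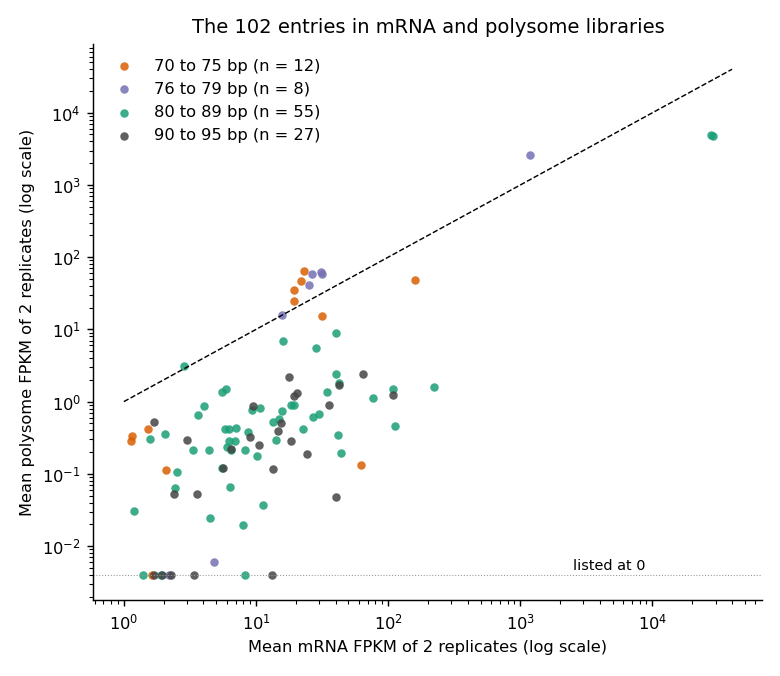
Mean FPKM of the 2 mRNA replicates (x axis, log scale) and of the 2 polysome replicates (y axis, log scale) for the 102 members, coloured by length class. The dashed line marks equal values and the dotted line holds the 10 members listed at 0 in both polysome replicates. Most members lie far below the dashed line, and the entries on or above it are mainly those of 74 and 77 bp.

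In the fit across all 19518 entries with a mean FPKM of at least 1 over the 4 libraries, 92 members were tested and 10 had too low a mean. Of the 92, 74 were lower in polysome RNA, 8 were higher and 10 passed in neither direction, where a call needed a limma adjusted P under 0.01 and a change of at least 1.5-fold. Over all entries tested, 22.2% were called lower and 21.1% higher. The ENSRNA entries above 95 bp with the same mRNA threshold were close to the members. Of 314 tested, 241 (76.8%) were lower and 28 (8.92%) higher, beside 80.4% and 8.70% of the members. The median log2 change was −4.44 for the members and −0.14 for all entries tested. The mRNA side of this comparison chose the members, so these counts describe them and are not a test of the group.

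Calls differed between the length classes, and the shortest class was mixed. Of the 76 members of 80 bp or longer that were tested, 69 were lower in polysome RNA and 0 were higher. Of the 16 shorter ones tested, 5 were lower and 8 were higher, and within these the 8 tested of 70 to 75 bp were 3 lower, 3 higher and 2 without a call. By length class the median ratio was 0.298 at 70 to 75 bp, 1.76 at 76 to 79 bp, 0.0414 at 80 to 89 bp and 0.0237 at 90 to 95 bp. One member of 80 bp or more had a ratio above 1, ENSRNA049476276 (85 bp, chromosome 7), singled out after its values were seen. Its values were 2.58 and 3.17 FPKM in mRNA and 3.32 and 2.90 FPKM in polysome RNA, which overlap.

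**Figure D3:**
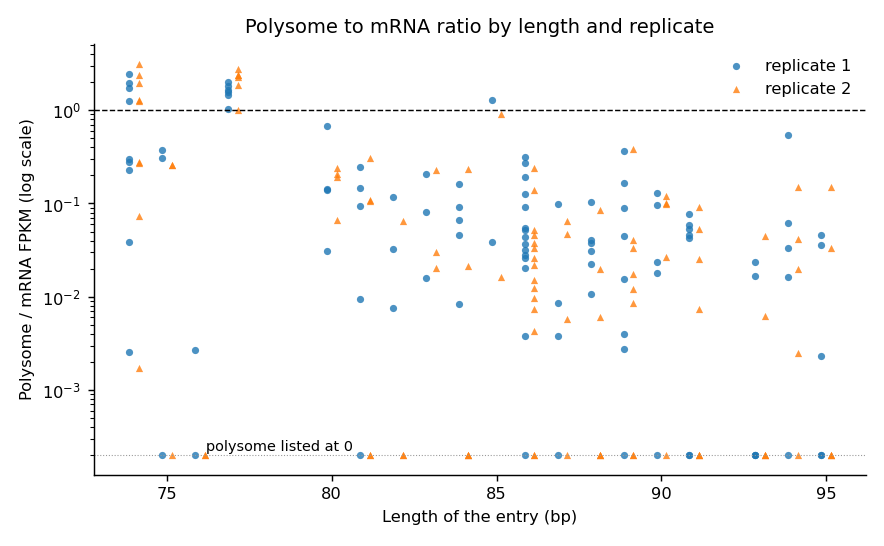
Ratio of polysome to mRNA FPKM (y axis, log scale) against entry length in bp (x axis), with circles for replicate 1 and triangles for replicate 2. The dashed line marks a ratio of 1 and the dotted line holds polysome values listed at 0. The points above 1 in both replicates are at 74 and 77 bp.

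All 8 members called higher were 74 or 77 bp long and overlapped no Zm00001d model. There were 11 members of these lengths with no overlapping model, and 10 of them had a ratio above 1 in both replicates, with a median of 1.87 over the 11. The exception was ENSRNA049460134 on chromosome 5, at 2.32 and 1.87 FPKM in mRNA and at 0.0906 and 0.137 FPKM in polysome RNA. The 11 entries were chosen by length and position after their values were seen. With 0.1 added to each FPKM, the replicates of all 11 were within 1.5-fold of each other in mRNA and in polysome RNA. All 11 were higher in mRNA replicate 1 than in mRNA replicate 2. Over the 102 members, 48 were higher in mRNA replicate 1 and 54 in mRNA replicate 2.

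ENSRNA049477439, given above, rose by 1.12 on the log2 scale (SE 0.11, limma adjusted P = 0.00058). ENSRNA049477722 (chromosome 7, 46259614 to 46259687, 74 bp) was at 25.6 and 20.9 FPKM in mRNA and at 62.7 and 65.9 FPKM in polysome RNA, a log2 change of 1.47 (SE 0.14, limma adjusted P = 0.00050). ENSRNA049477727, of 77 bp and also on the minus strand, had a listed start 772 bp higher on the chromosome. It was at 30.0 and 22.8 FPKM in mRNA and at 54.7 and 63.3 FPKM in polysome RNA. The polysome values of all 3 lay above their mRNA values without overlap.

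The same spacing of 772 bp between a 74 bp and a 77 bp member occurred on the minus strand of chromosome 10. There ENSRNA049474675 (74 bp, starting at 141537098) was at 23.9 and 20.2 FPKM in mRNA and at 46.6 and 47.7 FPKM in polysome RNA. ENSRNA049474661 (77 bp, starting at 141537870) was at 35.2 and 27.2 FPKM in mRNA and at 57.8 and 65.4 FPKM in polysome RNA. On chromosome 5 another such pair, 8102 bp apart, joined ENSRNA049446227, described above, with ENSRNA049477174.

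ENSRNA049477174 was at 36.4 and 27.2 FPKM in mRNA and at 57.1 and 61.8 FPKM in polysome RNA. The 77 bp entries of the 3 chromosome pairs had values within 0.28 on the log2 scale of each other in every library. Whether they are copies that share reads was not tested, because the sequences were not analysed here. The other 2 members called higher, ENSRNA049471872 and ENSRNA049475327, had log2 changes of 0.72 and 0.88, and they are named after their values were seen.

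The number of members called higher depended on single libraries and on scale. It was 3 without mRNA replicate 2, 3 without polysome replicate 1 and 3 without polysome replicate 2, and 4 with no filter on low FPKM. With FPKM rescaled to the sum of the entries that are not ENSRNA, which moves log2 changes by −0.67 for abundant entries and by less for entries near 0, 87 members were lower and 1 was higher, ENSRNA049477722 at 0.81. Over all entries the same rescaling changed the split from 4340 lower and 4124 higher to 9006 and 1798, and centring each library on its median gave 3350 and 5239.

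The largest decreases were of 74 to 94 bp and reached values near 0 in polysome RNA. ENSRNA049476313 (chromosome 7, 3204583 to 3204668, 86 bp) was at 108 and 115 FPKM in mRNA and at 0.416 and 0.499 FPKM in polysome RNA, a ratio of 0.0041 (log2 change −7.65, SE 0.16, limma adjusted P = 3.0e-05). ENSRNA049471198, given above, had a ratio of 0.0072 (log2 change −7.07, SE 0.24, limma adjusted P = 4.4e-05). The 74 bp entry ENSRNA049465846 (chromosome 1, 50881178 to 50881251) was at 60.0 and 64.7 FPKM in mRNA and at 0.154 and 0.112 FPKM in polysome RNA.

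ENSRNA049479381 on chromosome 6 was at 42.9 and 38.1 FPKM in mRNA and at 0 and 0.0942 FPKM in polysome RNA. ENSRNA049475525 on chromosome 8 was at 41.7 and 45.6 FPKM in mRNA and at 0.390 and 0 FPKM in polysome RNA. All 5 had polysome values far outside the range of their mRNA replicates. The log2 changes were taken after adding 0.1 to each FPKM, so for values this low they depend on that addition.

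Most members overlapped no Zm00001d gene model. Of the 102 members, 26 (25.5%) overlapped a model, against 634 of the 814 short entries (77.9%), a share that counts the 535 identical intervals. All 26 were on the strand of the model and lay wholly within it, 3 as identical intervals and 23 inside a larger model. Of all 814 short entries, 130 lay inside a larger model, a lower share than the 23 of 102 members. The library kit did not mark strand, and reads of an entry and of the model around it cannot be told apart where they coincide. The tables give no class for the Zm00001d models, and positions in exons or introns were not analysed here.

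The 23 nested members lay in 14 larger models of 1071 to 5056 bp, 6 of which held 2 or more. One of the 23, ENSRNA049466250, lay in both Zm00001d006923 and Zm00001d006924 and was counted with the first. The ratio of polysome to mRNA FPKM was lower for the entry than for the model around it for all 23, in each replicate. The mRNA threshold chose the nested members and was not set for the models, so this is a description and not a test. A further 107 short entries inside a larger model were not members and had no part in this comparison. The median ratio was 0.0256 over the nested members and 2.27 over the 14 models. In the limma fit 7 of the 14 models were higher and 3 were lower in polysome RNA, whereas of the 22 nested members tested, 21 were lower and 0 were higher.

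**Figure D4:**
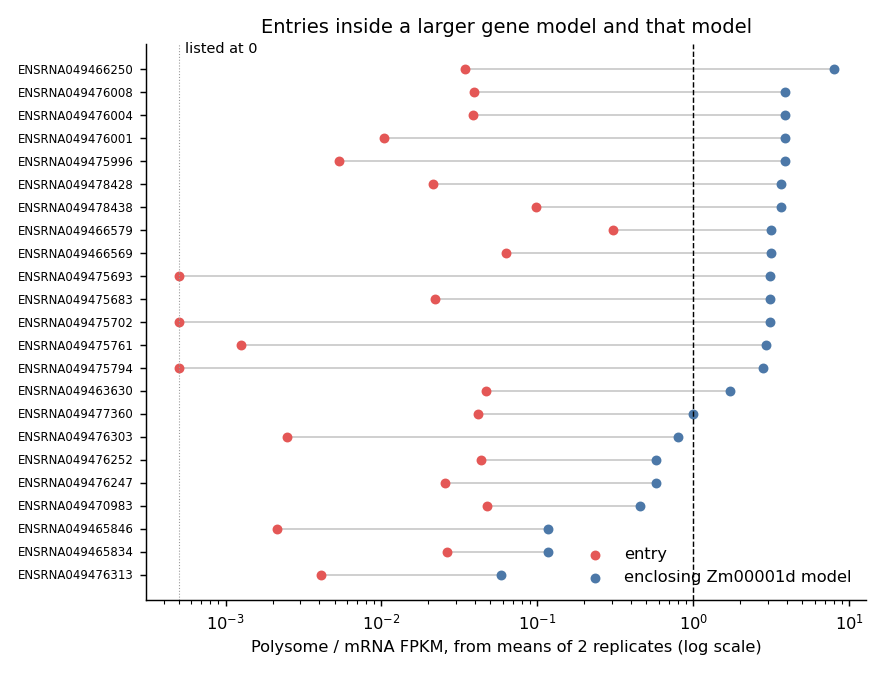
Ratio of polysome to mRNA FPKM (x axis, log scale, from the means of 2 replicates) for the 23 nested members (red, one row each) and for the larger Zm00001d model around each (blue). The dashed line marks a ratio of 1 and the dotted line holds entries listed at 0 in polysome RNA. Every red point lies to the left of its blue point.

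Zm00001d005334 on chromosome 2 (169838654 to 169842673) held the most, 4 members. The model was at 24.3 and 25.6 FPKM in mRNA and at 102 and 91.0 FPKM in polysome RNA (log2 change 1.94, SE 0.12, limma adjusted P = 0.00015). Its 4 nested members had ratios of 0.0054 to 0.0392. The model and these 4 members therefore moved in opposite directions between the same libraries. A further entry inside the model, ENSRNA049476010, was no member and had a mean of 0.0422 FPKM in mRNA and 0.0971 FPKM in polysome RNA.

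The ratio was also low for some of the surrounding models. Zm00001d001078, which surrounds ENSRNA049476313, was at 5.76 and 6.79 FPKM in mRNA and at 0.409 and 0.326 FPKM in polysome RNA. Zm00001d022725, which surrounds ENSRNA049465846, was at 4.09 and 4.45 FPKM in mRNA and at 0.479 and 0.521 FPKM in polysome RNA. Both nested entries had a higher mRNA FPKM than their model, as did 5 of the 23 in all.

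Many members stood close together on the chromosomes. With neighbours joined at gaps of at most 10 kb, 57 of the 102 members (55.9%) formed 25 clusters, and 265 of all 814 short entries (32.6%) were clustered by the same measure. The clusters were 21 pairs, 1 group of 3 and 3 groups of 4. In each of the 25 all members were on the same strand, and 20 spanned less than 1 kb. The median distance from one start to the next was 218 bp, and 20 of the 32 distances were between 150 and 260 bp. By chromosome, the share of short entries that were members ran from 5.59% on chromosome 2 (9 of 161) to 21.1% on chromosome 7 (16 of 76), and chromosome 5 held the highest number, 21 of 112.

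Levels within a cluster were uneven. The highest member had 2.21 times the mean mRNA FPKM of the lowest in the median cluster and 28.6 times in the extreme one, a pair 188 bp apart on chromosome 8. There ENSRNA049475525 was at 41.7 and 45.6 FPKM, as above, and ENSRNA049475518 was at 1.04 and 2.01 FPKM in mRNA. In the pair of chromosome 1 led by ENSRNA049471198, ENSRNA049471190 started 233 bp away and was at 109 and 111 FPKM in mRNA and at 1.67 and 1.35 FPKM in polysome RNA.

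**Figure D5:**
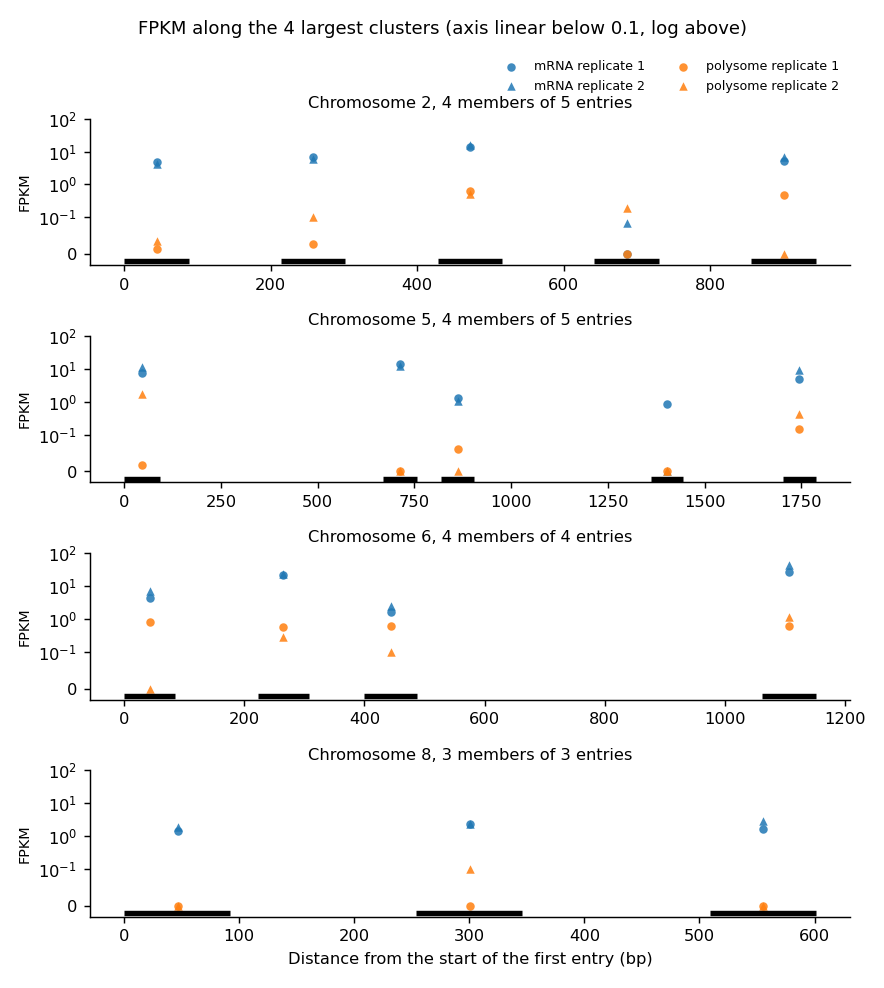
FPKM (y axes, linear below 0.1 and log above) of every short ENSRNA entry in the 4 clusters with 3 or more members, against the distance in bp from the start of the first entry (x axes). Blue marks mRNA, orange marks polysome RNA, circles and triangles are replicates 1 and 2, and black bars show the extent of each entry. Blue points lie above orange points for every member, and levels differ between neighbours.

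The cluster in Zm00001d005334 was the most regular. It held 5 entries of 89 bp whose starts followed each other at 214 bp, of which 4 were members. ENSRNA049475996 was at 4.94 and 4.09 FPKM in mRNA, ENSRNA049476001 at 6.78 and 5.88, ENSRNA049476004 at 13.9 and 16.1, and ENSRNA049476008 at 5.31 and 6.76. The entry between the last 2, ENSRNA049476010, was at 0 and 0.0843 FPKM in mRNA and was not a member. In polysome RNA ENSRNA049476004 was at 0.620 and 0.531 FPKM, and the other 3 members were at or below 0.473 FPKM. All 4 were called lower. For ENSRNA049476008, at 0.473 and 0 FPKM in polysome RNA, the log2 change was −4.67. Its call was lost without mRNA replicate 2 (−4.50), with 0.01 in place of 0.1 added to each FPKM (−6.43) and with no filter on low FPKM (−4.67).

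A cluster on chromosome 5 (49269749 to 49271536) held 4 members of 84 to 95 bp outside any model. ENSRNA049461441 was at 14.0 and 12.3 FPKM in mRNA and listed at 0 in both polysome replicates. ENSRNA049461634 was at 7.24 and 11.6 FPKM in mRNA and at 0.0168 and 1.75 FPKM in polysome RNA. It had a log2 change of −4.32 (SE 1.19) and no call (limma adjusted P = 0.0210), and it was called lower without either polysome replicate, at −2.33 without replicate 1 and −6.31 without replicate 2. ENSRNA049461479 was at 4.80 and 9.07 FPKM in mRNA and was called lower, and ENSRNA049461457 was at 1.33 and 1.04 FPKM and was not tested.

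A cluster on chromosome 6 (92504959 to 92506110) held 4 members of 86 to 90 bp. ENSRNA049479424 was at 27.0 and 44.1 FPKM in mRNA and at 0.633 and 1.17 FPKM in polysome RNA. ENSRNA049479461 was at 21.3 and 23.9 FPKM in mRNA and at 0.555 and 0.294 FPKM in polysome RNA. Both were called lower, whereas ENSRNA049479467 and ENSRNA049479518 were not (log2 changes −4.24 and −2.49, limma adjusted P = 0.0114 and 0.0148). Without polysome replicate 1 both were called lower, at −5.85 and −3.41, and without polysome replicate 2 ENSRNA049479467 was called lower at −2.63. ENSRNA049479467 was at 0.827 and 0 FPKM in polysome RNA, and ENSRNA049479518 at 0.613 and 0.0995 FPKM.

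Pairs of long members were also abundant on chromosome 7. ENSRNA049478044 and ENSRNA049478041 started 191 bp apart. ENSRNA049478044 was at 106 and 111 FPKM in mRNA and at 1.78 and 0.685 FPKM in polysome RNA. ENSRNA049478041 was at 70.8 and 57.9 FPKM in mRNA and at 2.39 and 2.41 FPKM in polysome RNA. ENSRNA049476306, 6803 bp before ENSRNA049476313, was at 73.65 and 79.98 FPKM in mRNA and at 1.51 and 0.771 FPKM in polysome RNA.

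A set of 3 members, named after their values were seen, lay inside intervals listed as microRNA precursors of the miR156 family. This family targets squamosa promoter-binding-like transcription factors and is known for the juvenile phase of the shoot. Of all 814 short entries, 24 overlapped a listed microRNA precursor, nearly the same share as the 3 of 102 members. ENSRNA049469740 in zma-MIR156e was at 6.89 and 4.25 FPKM in mRNA and at 1.13 and 1.62 FPKM in polysome RNA. ENSRNA049461886 in zma-MIR156d and ENSRNA049479509 in zma-MIR156k had mRNA values of 3.44 to 6.61 FPKM, and all 3 were called lower in polysome RNA, with ratios of 0.216 to 0.255.

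No member overlapped an m6A peak. The peak lists held 17371 and 30378 peaks, and 0 of the 102 members touched a peak in either replicate, while 2 of all 814 short entries touched a peak shared by both. Peaks of this assay come from fragmented polyadenylated RNA, so the count says how often a peak was called at these positions and not whether the RNA carries the mark.

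The replicates were close in mRNA and less so in polysome RNA. With 0.1 added to each FPKM, the mRNA values were within 1.5-fold of each other for 82 of the 102 members and the polysome values for 52. Across the members the correlation of log2 values was 0.98 between mRNA replicates and 0.93 between polysome replicates (Pearson, n = 102, entries of the same libraries).

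The threshold cut through a continuous range of values. Just inside it were ENSRNA049470918 at 1.001 and 1.787 FPKM and ENSRNA049447361 at 1.257 and 1.001 FPKM. Just outside were ENSRNA049476604 at 0.898 and 0.771 FPKM and ENSRNA049461250 at 0.772 and 0.959 FPKM. At the length limit the 5 members of 95 bp had a median ratio of 0.0157, and the 7 entries of 96 bp that met the FPKM rule had 0.0558. Of the 712 short entries that were not members, 12 reached 1 FPKM in one mRNA replicate.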

How the data were processed

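Seedlings of the hybrid gave 2 libraries each of mRNA, polysome RNA and m6A-immunoprecipitated RNA. They were sequenced as read pairs, and each read before trimming was longer than the entries described. The authors trimmed reads with Trimmomatic 0.35, aligned them to B73 RefGen_v4 with HISAT2 2.1.0 and estimated FPKM with StringTie, and these FPKM were deposited per gene and library. How multiply mapped reads and overlapping entries were divided is not given in the sources used here. m6A peaks were called by the authors with MACS2 at a q-value of 0.01, and the deposited peak lists give a fold enrichment, a −log10 p and q value and a score for each peak. The main count used only the peak positions, and an alternative setting kept peaks with a q-value of at most 1e-05 in both replicates. Counts and library depth are not given, so no interval from counting error was computed.

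The members and lists were chosen with earlier results of these data known. Entries averaging 1 FPKM or more over the 4 mRNA and polysome libraries were fitted with limma 3.58.1 (R 4.3.3) on log2(FPKM + 0.1) without covariates, with a trended prior and Benjamini-Hochberg adjustment over all 19518, and a call needed an adjusted P under 0.01 and a change of 1.5-fold. FPKM are not counts, so the count-based tests of the study's methods were not used. The fit was tested on simulated data. Ratios divide the mean of the polysome replicates by that of the mRNA replicates. Clusters join members at gaps of at most 10 kb on a chromosome, on either strand. Members were named in full by rule: the 10 highest in mRNA, the 2 highest of each length class, the 5 largest increases and decreases called among those averaging 10 FPKM or more, the 3 clusters with most members, and those at the limits of the rule. The part of that rule on m6A peaks found none. Sequence families, motifs and tissue markers by symbol were not analysed here, since the reference used here does not pair with these identifiers.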

Additional observations from a re-analysis of the deposited data

How the results depend on the processing

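The number of members was 111, 87 and 50 with a minimum of 0.5, 2 and 10 FPKM in both mRNA replicates, and 107 with a mean of at least 1. The median ratio of 0.0396 was 0.0549 with 0.1 added to each FPKM, 0.173 with 1 added, 0.308 over the 27 members with polysome FPKM of at least 1 in both replicates, and 0.0247 with FPKM rescaled to the sum of the entries that are not ENSRNA. Members called higher in polysome RNA numbered 8, 4 with no filter, 1 after the rescaling, and 3 to 7 with a replicate left out, where the spread of the lone library was taken from the other kind. Members called lower numbered 74, and 65 to 78 with a replicate left out. Over all entries these fits gave 1843 to 2864 lower and 2704 to 2893 higher calls, against 4340 and 4124. Without the 2 most abundant members, an alternative chosen after seeing the data, the summed share was 0.301% in mRNA and 0.324% in polysome RNA. The order of the 2 shares turned round there, which rested on ENSRNA049477439. On the opposite strand, 0 members overlapped a model. Of 61 alternatives for these quantities, 13 moved them. Some of the 61 had an outcome fixed in advance. A share from 1 of 2 replicates always lies within the SD that served as the limit. Stricter settings for m6A peaks cannot lower a count of 0. Signs and calls were compared only for the 32 tested members named by rule, and none of their log2 changes changed sign. Among 352 alternatives for named members, 20 lost a call and 12 gained one. Replicate numbers were not shown to pair the samples (correlation of deviations 0.016 over all 19518 entries). With the replicate block, 76 members were lower and 7 higher, and ENSRNA049461634 was called lower (log2 change −4.32, limma adjusted P = 0.0066).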
